A study of Mus musculus with 12 samples.

Results

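The 54 genes described here encode the proteins that license and fire replication origins, copy nuclear DNA and supply its deoxynucleotides. They were taken as a list of symbols grouped by role, with 13 genes of origin licensing, 9 of origin firing, 9 subunits of the replicative polymerases, 10 genes of the sliding clamp, its loaders and the single-strand binding complex, 3 of Okazaki fragment processing, 5 of fork protection and chromatin assembly and 5 of nucleotide supply. All 54 symbols were found among the 49315 gene identifiers of the count tables, and all 54 were among the 17416 genes left by the filter on low counts, with at least 10 counts in every library. RNA-seq was performed on mouse adult fibroblasts (MAFs), primary cells isolated from the ears of adult female mice that were either wild type (WT, C57BL/6) or Bmal1 -/- (KO). Control MAFs were sham irradiated, and senescent MAFs received 20 Gy of X-rays and were then kept in culture until senescent. Both treatments of both genotypes shared 3% oxygen, a pulse of 100 nM dexamethasone for 2 hours to synchronize circadian clocks, and collection 12 hours after it. The 4 groups held 3 libraries each, and the sources used here do not say whether these came from separate animals or cultures, so p-values measure only the spread between these libraries, which may be technical.

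DNA replication is prepared in G1, when the origin recognition complex (ORC), CDC6 and CDT1 load the MCM2-7 helicase onto origins. In S phase the CDC7-DBF4 kinase, TICRR, MCM10, CDC45 and the GINS complex turn the loaded helicase on. Polymerases alpha, delta and epsilon copy the strands behind it, and the PCNA clamp holds delta and epsilon to DNA. Many of these genes are transcribed at the G1/S boundary under E2F factors, which the retinoblastoma protein holds inactive in cells that have left the cycle, and senescence is a lasting exit from the cycle. BMAL1, encoded by Arntl, is a clock transcription factor that pairs with CLOCK and binds E-boxes, whose core is CACGTG.

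Total counts were 23923030 to 31736083 per library, at which 3 counts equal 0.0945 to 0.125 CPM, counts of a gene per 1e6 of the library. CPM is a share of the library, scaled here by TMM (trimmed mean of M-values) factors, so it does not measure RNA per cell, and in bulk RNA fewer cells that express a gene and less RNA per cell cannot be told apart. Arntl, the targeted gene, was lower in every KO library than in every WT library, with a log2 fold change of KO against WT of −1.26 (SE 0.09, adjusted p 2e-09) in control cells and −0.44 (SE 0.08, adjusted p 0.000329) in senescent cells. The 10 fibroblast markers summed to 21559 to 22403 CPM in WT control, 10530 to 10944 in WT senescent, 26930 to 28493 in KO control and 12761 to 13160 in KO senescent libraries. At adjusted p under 0.05 in the test described below, 5 of the 10 were lower and 5 higher with senescence in WT cells. Of all genes 27.0% were lower and 29.2% higher. In KO cells 6 were lower and 3 higher (28.6% and 28.5% of all genes were). The 7 chondrocyte markers, which cells of ear cartilage would carry, summed to 6945 to 8597, 1840 to 2135, 4537 to 6193 and 582 to 676 CPM in the same order. None was at 0 in all 12 libraries, and 6 of the 7 passed the filter on low counts. They were thus lower in senescent than in control and in KO than in WT libraries, and their part in the results was not tested. Summed markers of keratinocytes, leukocytes, endothelium, skeletal muscle, melanocytes and adipocytes stayed at or below 59.8 CPM in every library.

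Promoter sequence was examined because the genes moved together. RefSeq windows of 300 bases (250 before the start and 50 after it, GRCm38.p6) were matched for 44 of the 54 genes, and none for Gins1, Gins2, Gins4, Pole, Prim2, Rfc2, Gmnn, Dscc1, Mcm4 or Tipin. The E2F-type words TTTCCCGC and TTTGGCGC, searched on both strands, were present in 13 of the 44 genes (29.5%) and in 1.80% of all 27025 genes with a window. The E-box CACGTG was present in 8 of 44 (18.2%, against 8.09% of all genes), CCAAT on either strand in 25 (56.8%, against 41.1%) and TTTGAA, a cell cycle homology word, in 7 (15.9%, against 20.2%). E2F-type words were found in more than 10 times the background share, and TTTGAA in a smaller share than among all genes. This background holds every gene with a window, expressed or not, while all 54 members passed the filter on low counts. Shares among expressed genes alone were not computed. The 13 genes with an E2F-type word and the 31 without one had median log2 fold changes of −1.97 and −2.29 in WT and −2.17 and −2.21 in KO cells, a difference that was not tested. None of the words contains another. The window of Timeless, counted among the 31, starts at 128237816, inside the gene, whose annotated start is 128232065. These are matches of letters and not measured binding. The 180 bases before the start are printed, in the direction of transcription, for 4 genes with an E2F-type word (capitals), the helicase loader Cdc6, the ring subunits Mcm5 and Mcm6 and the catalytic subunit Pola1, for 2 genes with an E-box (capitals) and for Orc2, which held neither word. The GENCODE annotation has a longer Cdc6 transcript that starts upstream of the window shown, and a long non-coding RNA on the other strand, Gm15834, overlaps the window of Orc2.
Cdc6, chr11:98907971-98908150, plus strand: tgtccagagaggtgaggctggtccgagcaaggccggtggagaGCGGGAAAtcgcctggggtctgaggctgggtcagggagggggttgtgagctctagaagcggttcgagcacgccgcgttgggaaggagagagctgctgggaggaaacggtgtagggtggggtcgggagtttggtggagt
Mcm5, chr8:75109329-75109508, plus strand: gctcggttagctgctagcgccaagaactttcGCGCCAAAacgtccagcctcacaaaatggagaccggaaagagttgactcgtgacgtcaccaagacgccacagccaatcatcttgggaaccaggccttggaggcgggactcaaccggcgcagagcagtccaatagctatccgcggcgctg
Mcm6, chr1:128359706-128359885, minus strand: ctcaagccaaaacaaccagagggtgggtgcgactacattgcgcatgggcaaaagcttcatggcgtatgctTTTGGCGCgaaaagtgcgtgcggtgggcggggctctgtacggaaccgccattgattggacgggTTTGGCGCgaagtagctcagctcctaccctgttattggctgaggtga
Pola1, chrX:93632156-93632335, minus strand: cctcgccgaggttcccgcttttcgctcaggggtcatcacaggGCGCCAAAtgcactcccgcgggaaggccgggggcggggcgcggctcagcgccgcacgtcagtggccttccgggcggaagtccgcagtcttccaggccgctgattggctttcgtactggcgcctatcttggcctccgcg
Chaf1a, chr17:56040236-56040415, plus strand: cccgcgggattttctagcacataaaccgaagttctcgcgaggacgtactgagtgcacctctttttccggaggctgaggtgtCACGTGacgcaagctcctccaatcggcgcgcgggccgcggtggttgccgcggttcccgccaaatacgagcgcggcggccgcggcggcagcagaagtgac
Tyms, chr5:30073626-30073805, minus strand: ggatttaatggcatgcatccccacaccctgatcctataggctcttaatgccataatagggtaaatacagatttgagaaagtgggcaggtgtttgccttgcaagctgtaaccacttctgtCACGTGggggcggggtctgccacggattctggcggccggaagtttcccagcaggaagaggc
Orc2, chr1:58505110-58505289, minus strand: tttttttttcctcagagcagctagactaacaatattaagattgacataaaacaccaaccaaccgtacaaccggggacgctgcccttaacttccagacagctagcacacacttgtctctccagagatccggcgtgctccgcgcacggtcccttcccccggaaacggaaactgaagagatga

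The first comparison asked how the replication genes moved with radiation-induced senescence. In WT cells all 54 were lower in senescent than in control cells past the test (edgeR's quasi-likelihood (QL) test, Benjamini-Hochberg adjusted p under 0.05), against 27.0% of all genes tested. Of these, 51 also had a log2 fold change under −1 and are termed DEGs, against 5.90% of all genes. The median log2 fold change was −2.08, which left 23.7% of the control level, beside 0.025 over all genes. In KO cells 53 were lower (28.6% of all genes were), 50 of them DEGs (7.58% of all genes), with a median of −2.21 beside −0.0028 over all genes, and Orc2 alone was higher. No member overlapped between senescent and control libraries in either genotype. In WT cells all 54 senescent ranges lay below the control range (29.7% of all genes did), and in KO cells 53 did (30.8%). The highest adjusted p was 0.00416 in WT and 0.00293 in KO cells, both of Orc2.

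Summed over the 54 genes, the level was 3862 ± 386 CPM in control and 1018 ± 24.9 CPM in senescent cells of the WT, and 3642 ± 180 and 914 ± 6.81 CPM in those of the KO (SD, n = 3). The genes thus took 0.332% to 0.390% of all counts in WT control libraries, 0.106% to 0.111% in WT senescent, 0.331% to 0.361% in KO control and 0.0943% to 0.0959% in KO senescent libraries. In this sum control libraries were more spread than senescent libraries. WT control replicate 2 had the lowest value of its group for 48 of the 54 genes, WT control replicate 3 the highest for 43, and KO control replicate 1 the highest of its group for 43. The control libraries therefore differed from each other in these genes as a block.

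**Figure D1:**
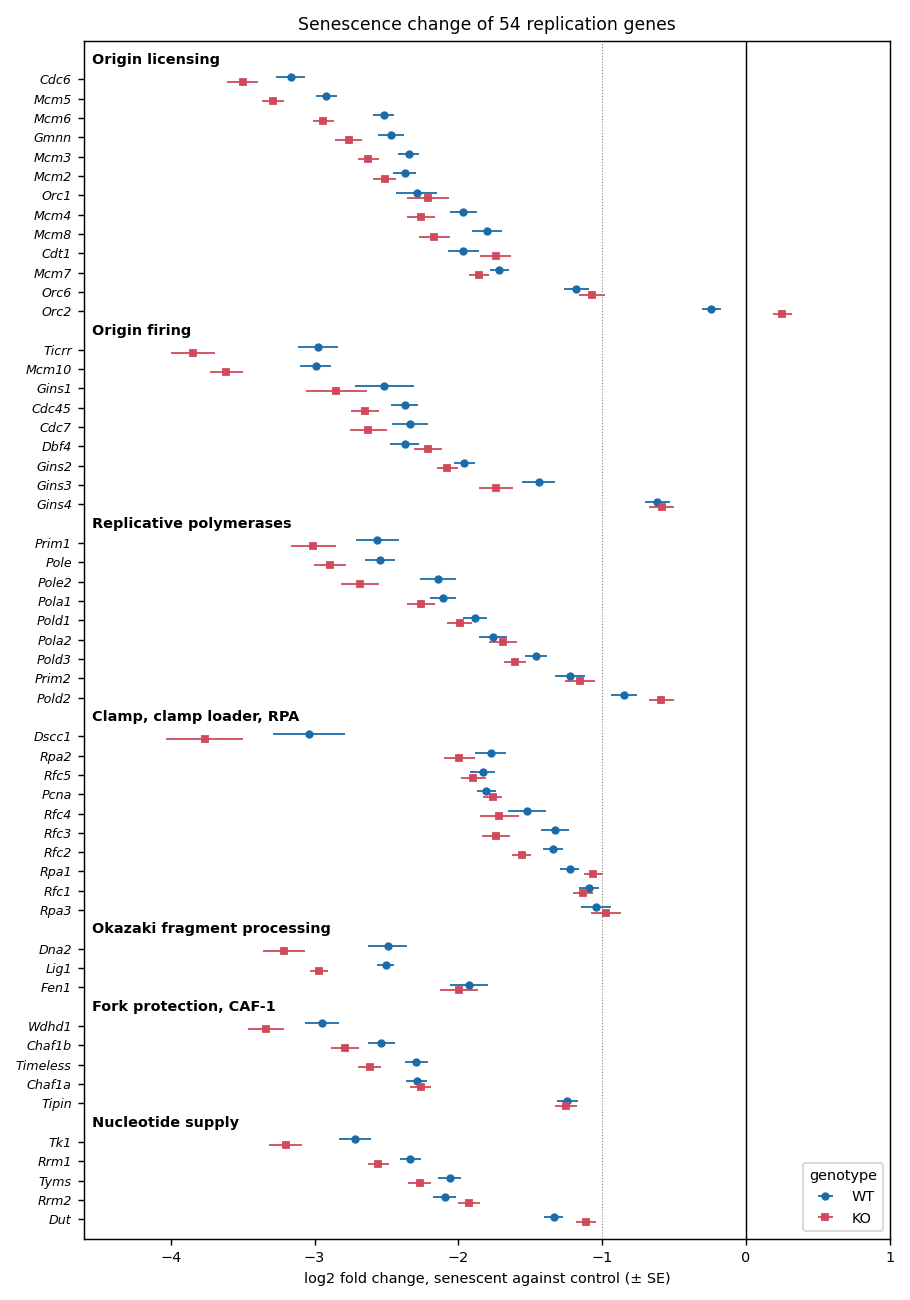
Log2 fold change of senescent against control cells for each of the 54 genes, by role, in WT (circles) and KO cells (squares), with bars of 1 SE on each side and a dotted line at −1. All points but the KO value of Orc2 lie left of 0, from −3.85 (Ticrr, KO) to 0.25 (Orc2, KO).

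Origin licensing genes fell to a median of 20.4% of the control level in WT cells and 20.9% in KO cells, with 13 of 13 lower in WT and 12 of 13 in KO. The MCM2-7 ring, the helicase core, held most of their counts. Summed over its 6 subunits the level went in WT cells from 981 ± 109 to 203 ± 8.34 CPM, and in KO cells from 915 ± 50.3 to 159 ± 1.90 CPM (SD, n = 3).

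Mcm2 was at 163, 139 and 179.8 CPM in control and 29.3, 31.8 and 31.8 CPM in senescent WT libraries (replicates 1 to 3 in order), and at 158, 146 and 142 CPM in control and 27.1, 25.9 and 25.3 CPM in senescent KO libraries. Mcm3 was at 155, 141 and 166 CPM in control and 27.2, 31.2 and 32.6 in senescent WT cells, and at 147, 136 and 133 in control and 22.6, 22.0 and 22.8 in senescent KO cells. Mcm4 was at 140.5, 120.4 and 153 CPM in control and 32.9, 38.8 and 34.2 in senescent WT cells, and at 146, 124 and 122 in control and 26.0, 27.3 and 28.5 in senescent KO cells. For these 3 subunits every senescent library lay far below every control library, and KO senescent libraries lay below WT senescent ones. Mcm5 (ENSMUSG00000005410, GRCm38 chromosome 8, 75109569 to 75128439, plus strand) was at 176, 143 and 178 CPM in control and 20.9, 23.0 and 21.8 in senescent WT cells, and at 149.8, 143 and 146 in control and 14.1, 15.6 and 15.2 in senescent KO cells. Mcm6 was at 202, 171 and 218 CPM in control and 34.3, 34.2 and 34.4 in senescent WT cells, and at 204, 187 and 188 in control and 25.1, 25.4 and 24.9 in senescent KO cells. Mcm7 was at 172, 146 and 178 CPM in control and 49.3, 51.2 and 50.6 in senescent WT cells, and at 168, 154 and 151 in control and 43.4, 45.6 and 41.8 in senescent KO cells. Mcm5 fell the most of the ring and Mcm7 the least, with WT log2 fold changes of −2.92 (SE 0.07, adjusted p 2.59e-17) and −1.72 (SE 0.07, adjusted p 1.04e-14). In KO cells they were −3.29 (SE 0.08, adjusted p 1.24e-17) and −1.86 (SE 0.07, adjusted p 2.76e-15). The 4 other subunits lay between, at −2.52, −2.37, −2.35 and −1.97 in WT cells for Mcm6, Mcm2, Mcm3 and Mcm4. Per kilobase of exon the subunits were at 23.1, 41.1, 38.5, 41.4, 42.2 and 37.4 RPKM in WT control cells for Mcm2 to Mcm7 in order, and at 4.45, 8.09, 9.84, 5.48, 7.35 and 11.4 RPKM in WT senescent cells. The exons of Mcm7 overlap 4 other annotated genes, 2 of them the microRNA genes Mir25 and Mir93, and the use of strand in counting is not given in the sources used here, so its counts may hold reads of those genes.

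**Figure D2:**
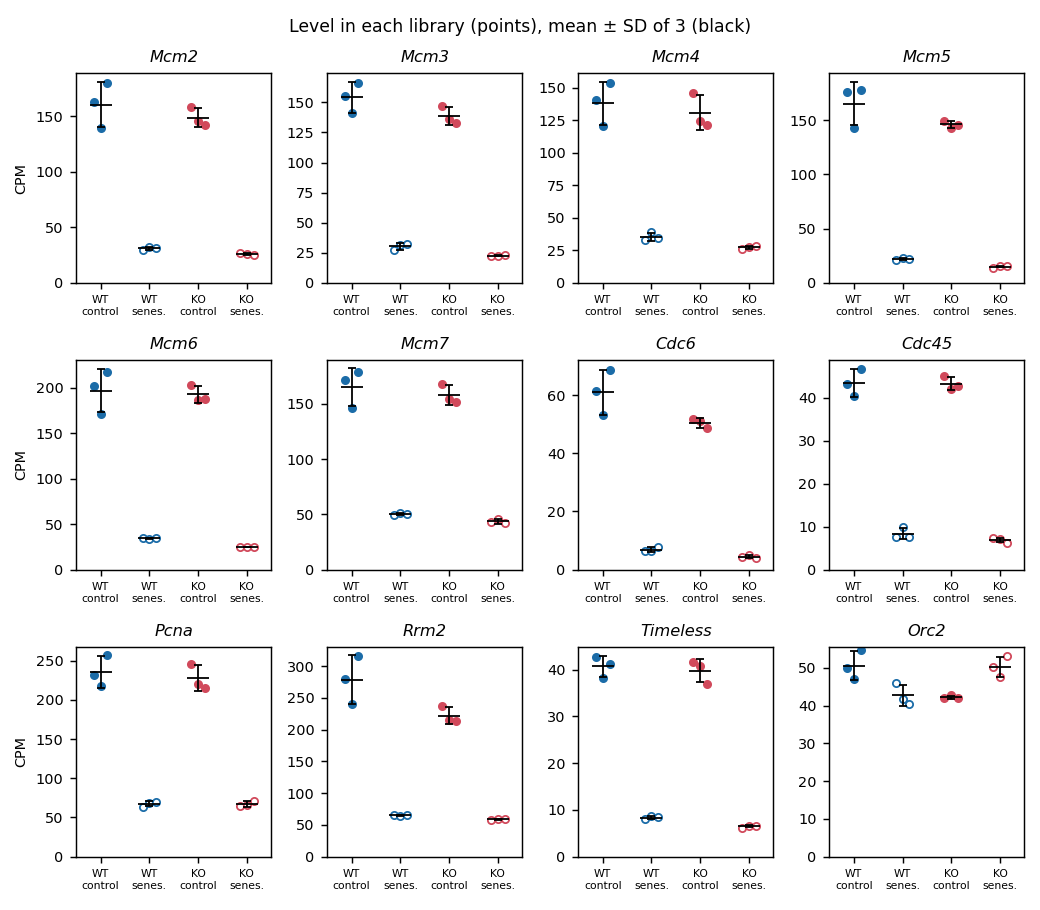
CPM in each library (points; WT blue, KO red, senescent open) with mean and SD of 3 libraries (black) for the 6 ring subunits and 6 other genes, each axis starting at 0. Senescent points lie below control points in all panels except the KO part of the Orc2 panel.

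Cdc6 (ENSMUSG00000017499, GRCm38 chromosome 11, 98907801 to 98923940, plus strand), the ATPase that joins ORC to load the helicase, had the largest WT fall of all 54. It was at 61.4, 53.1 and 68.6 CPM in control and 6.40, 6.30 and 7.76 in senescent WT cells, and at 51.9, 51.0 and 48.6 in control and 4.52, 4.96 and 3.92 in senescent KO cells. The log2 fold change was −3.17 (SE 0.10, adjusted p 8.63e-16) in WT and −3.50 (SE 0.11, adjusted p 3.89e-16) in KO cells, with no overlap of libraries between any pair of groups compared. Cdt1, the other loading factor, was at 32.7, 28.4 and 35.3 CPM in control and 7.76, 8.55 and 8.33 in senescent WT cells, and at 30.3, 25.1 and 28.1 in control and 7.76, 7.48 and 9.66 in senescent KO cells. Cdt1 had a log2 fold change of −1.97 (SE 0.11, adjusted p 1.84e-12) in WT and −1.74 (SE 0.11, adjusted p 1.18e-11) in KO cells. Gmnn, which encodes geminin, the inhibitor of CDT1, was at 37.5, 35.3 and 36.7 CPM in control and 5.92, 6.57 and 7.33 in senescent WT cells, and at 35.1, 31.0 and 32.6 in control and 5.13, 4.86 and 4.56 in senescent KO cells. Geminin transcripts fell by 2.47 on the log2 scale in WT cells and by 2.76 in KO cells, so that loader and inhibitor fell together.

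The ORC subunits did not move alike. Orc1, the subunit that is itself regulated through the cycle, fell by 2.29 and 2.21 on the log2 scale in WT and KO cells, and Orc6 by 1.18 and 1.07. Orc2 (ENSMUSG00000026037, GRCm38 chromosome 1, 58462771 to 58505109, minus strand) was at 49.9, 47.2 and 54.8 CPM in control and 46.0, 41.8 and 40.6 in senescent WT cells, and at 42.0, 42.7 and 42.0 in control and 50.2, 47.7 and 53.1 in senescent KO cells. Its log2 fold change was −0.24 (SE 0.07, adjusted p 0.00416) in WT cells and 0.25 (SE 0.07, adjusted p 0.00293) in KO cells, the only change in opposite directions among the 54. With library totals in place of TMM the WT fall was −0.07 with adjusted p 0.353. Its exons overlap those of Nif3l1. Mcm8, a helicase relative outside the ring with a role in repair, fell by 1.80 and 2.17 in WT and KO cells.

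Origin firing genes fell in 9 of 9 cases in both genotypes, and 8 were DEGs. Ticrr, which encodes treslin, was at 29.1, 22.8 and 34.5 CPM in control and 3.78, 3.67 and 3.51 in senescent WT cells, and at 31.7, 27.5 and 27.9 in control and 2.43, 1.84 and 1.79 in senescent KO cells. Its log2 fold change was −2.97 (SE 0.14, adjusted p 7.48e-13) in WT and −3.85 (SE 0.15, adjusted p 5.01e-14) in KO cells, the latter being the largest of the 54. Mcm10, a factor that activates the loaded helicase, was at 43.0, 38.7 and 47.0 CPM in control and 5.48, 4.81 and 5.90 in senescent WT cells, and at 38.6, 35.4 and 37.3 in control and 3.24, 3.48 and 2.40 in senescent KO cells. It fell by 2.99 and 3.61 on the log2 scale in WT and KO cells. Ticrr and Mcm10 were in each case lowest in the KO senescent libraries, which did not overlap any other group. Cdc45, a subunit of the active helicase, was at 43.2, 40.4 and 46.7 CPM in control and 7.55, 9.87 and 7.64 in senescent WT cells, and at 45.0, 42.1 and 42.7 in control and 7.37, 7.06 and 6.32 in senescent KO cells. The change was −2.37 (SE 0.10, adjusted p 1.47e-14) in WT and −2.65 (SE 0.10, adjusted p 3.33e-15) in KO cells. Gins4 was at 37.3, 35.4 and 40.6 CPM in control and 23.4, 25.4 and 25.1 in senescent WT cells, and at 42.9, 36.6 and 32.7 in control and 24.0, 25.5 and 25.2 in senescent KO cells, and fell the least of the firing genes, by 0.62 and 0.59 on the log2 scale. The 3 other GINS genes fell by 2.51 (Gins1), 1.96 (Gins2) and 1.44 (Gins3) in WT cells. The kinase genes Cdc7 and Dbf4 fell by 2.34 and 2.37 in WT and by 2.63 and 2.21 in KO cells.

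The 9 polymerase genes all fell in both genotypes, to a median of 27.1% of control in WT and 25.1% in KO cells. Prim1, the catalytic primase subunit, was at 48.7, 38.5 and 52.4 CPM in control and 6.91, 9.46 and 7.14 in senescent WT cells, and at 50.0, 43.8 and 43.3 in control and 6.41, 6.17 and 4.49 in senescent KO cells. It changed by −2.57 (SE 0.15, adjusted p 3.75e-09) in WT and −3.01 (SE 0.16, adjusted p 9.19e-10) in KO cells. Pold2, an accessory subunit of polymerase delta, was at 32.2, 32.4 and 36.1 CPM in control and 18.1, 19.3 and 18.5 in senescent WT cells, and at 35.2, 32.1 and 26.4 in control and 20.0, 21.8 and 20.6 in senescent KO cells. It had the smallest changes of the 9, −0.85 (SE 0.09, adjusted p 5.85e-08) and −0.59 (SE 0.09, adjusted p 8.3e-06). The catalytic subunits Pole, Pola1 and Pold1 fell by 2.55, 2.11 and 1.89 on the log2 scale in WT cells and by 2.89, 2.26 and 1.99 in KO cells. The accessory subunits Pole2, Pola2, Pold3 and Prim2 fell by 2.14, 1.76, 1.46 and 1.22 in WT and by 2.68, 1.69, 1.60 and 1.16 in KO cells.

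The clamp, clamp loader and RPA genes all fell in both genotypes with a WT median of −1.43 and a KO median of −1.73, closer to 0 than those of the other roles, a difference that was not tested. Pcna, the sliding clamp, was at 232, 218 and 258 CPM in control and 63.8, 68.6 and 69.8 in senescent WT cells, and at 246, 221 and 215 in control and 64.8, 65.3 and 71.1 in senescent KO cells. Its log2 fold change was −1.81 (SE 0.07, adjusted p 5.9e-15) in WT and −1.76 (SE 0.07, adjusted p 6e-15) in KO cells, and the senescent libraries of both genotypes overlapped. Dscc1, which belongs to an alternative clamp loader that acts in sister chromatid cohesion, was at 7.68, 7.41 and 5.42 CPM in control and 1.19, 0.774 and 0.502 in senescent WT cells, and at 6.72, 7.74 and 7.08 in control and 0.54, 0.355 and 0.675 in senescent KO cells. It fell from a low level by 3.04 (SE 0.25) and 3.76 (SE 0.27) on the log2 scale, the widest errors among the members. Rpa3, the small subunit of the complex that coats single-stranded DNA, was at 19.3, 20.5 and 22.6 CPM in control and 8.95, 11.3 and 10.0 in senescent WT cells, and at 22.7, 18.4 and 19.4 in control and 9.92, 10.3 and 10.6 in senescent KO cells. Its falls, 1.04 and 0.97, were the smallest of this role, and those of Rpa1 and Rpa2 were 1.22 and 1.78 in WT and 1.06 and 1.99 in KO cells. The RFC clamp loader genes Rfc1 to Rfc5 fell by 1.09, 1.34, 1.33, 1.53 and 1.83 in order in WT cells and by 1.13, 1.56, 1.74, 1.72 and 1.90 in KO cells.

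The 3 genes that process Okazaki fragments fell in both genotypes. Dna2, a nuclease and helicase that trims long flaps, was at 19.0, 17.9 and 17.5 CPM in control and 3.88, 2.69 and 3.09 in senescent WT cells, and at 17.8, 16.7 and 14.6 in control and 1.74, 1.56 and 1.99 in senescent KO cells. It changed by −2.49 (SE 0.14, adjusted p 1.69e-12) in WT and −3.21 (SE 0.15, adjusted p 9.36e-14) in KO cells, and no KO senescent library reached a WT senescent one. Fen1, the flap endonuclease, was at 20.9, 19.1 and 23.6 CPM in control and 6.23, 4.98 and 5.48 in senescent WT cells, and at 21.3, 18.6 and 19.7 in control and 6.14, 4.93 and 3.95 in senescent KO cells, and fell by 1.93 and 1.99 on the log2 scale. Lig1, the ligase that seals the fragments, fell by 2.50 and 2.97.

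Fork protection and chromatin assembly genes fell in 5 of 5 cases in both genotypes. Timeless (ENSMUSG00000039994, GRCm38 chromosome 10, 128232065 to 128252941, plus strand), which with TIPIN steadies the fork and whose insect relative belongs to the circadian clock, was at 42.7, 38.1 and 41.3 CPM in control and 7.96, 8.59 and 8.37 in senescent WT cells, and at 41.7, 40.7 and 37.0 in control and 6.21, 6.63 and 6.59 in senescent KO cells. Its log2 fold change was −2.29 (SE 0.08, adjusted p 2.08e-15) in WT and −2.62 (SE 0.08, adjusted p 3.89e-16) in KO cells. Tipin, its partner, was at 49.3, 45.8 and 56.3 CPM in control and 21.9, 20.3 and 21.9 in senescent WT cells, and at 46.6, 49.1 and 45.2 in control and 18.7, 20.0 and 20.4 in senescent KO cells, and fell by 1.24 and 1.25 on the log2 scale. Each partner thus lay below control in every senescent library, Timeless by more than Tipin, a difference that was not tested. Wdhd1, which tethers polymerase alpha to the helicase, was at 64.9, 53.0 and 70.7 CPM in control and 7.48, 7.10 and 9.92 in senescent WT cells, and at 59.4, 59.0 and 52.9 in control and 5.90, 5.67 and 5.40 in senescent KO cells. It fell by 2.95 and 3.34, the most of this role. Chaf1a and Chaf1b, subunits of the histone chaperone CAF-1, fell by 2.29 and 2.54 in WT and by 2.26 and 2.79 in KO cells.

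Nucleotide supply genes fell in 5 of 5 cases in both genotypes. Rrm1, the large subunit of ribonucleotide reductase, which makes deoxynucleotides, was at 269, 234 and 296 CPM in control and 50.7, 54.9 and 52.8 in senescent WT cells, and at 299, 273 and 274 in control and 50.2, 48.3 and 45.3 in senescent KO cells. Rrm2 (ENSMUSG00000020649, GRCm38 chromosome 12, 24708241 to 24714146, plus strand), its S phase small subunit, was at 279.8, 239.7 and 317 CPM in control and 65.1, 64.5 and 65.9 in senescent WT cells, and at 238, 214 and 214 in control and 57.3, 58.9 and 59.2 in senescent KO cells. The log2 fold changes were −2.34 (SE 0.07, adjusted p 1.04e-15) and −2.10 (SE 0.08, adjusted p 4.53e-14) in WT cells and −2.56 and −1.93 in KO cells. Tk1, the cytosolic thymidine kinase, was at 80.8, 69.3 and 80.5 CPM in control and 11.5, 11.8 and 11.7 in senescent WT cells, and at 91.4, 77.3 and 79.9 in control and 11.3, 8.01 and 7.80 in senescent KO cells. It fell the most of this role, with −2.72 (SE 0.11, adjusted p 3.87e-12) in WT and −3.20 (SE 0.11, adjusted p 6.3e-13) in KO cells. Dut, which removes dUTP, was at 67.4, 63.6 and 69.8 CPM in control and 25.6, 27.9 and 25.9 in senescent WT cells, and at 67.2, 62.5 and 57.5 in control and 28.4, 28.0 and 30.2 in senescent KO cells. Its falls were the smallest of this role, 1.34 and 1.11 on the log2 scale, and Tyms, which makes thymidylate, fell by 2.06 and 2.27.

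Because these proteins work in fixed complexes, the subunits were set side by side, with their partners outside the 54 added from the wider pathway. In WT cells the falls of the MCM2-7 ring spanned 1.20 log2 units, those of RFC 0.74 and those of RPA 0.73. Several other complexes were more spread. ORC ranged from −2.29 (Orc1) to 0.25 (Orc4), GINS from −2.51 (Gins1) to −0.62 (Gins4), polymerase epsilon from −2.55 (Pole) to −0.35 (Pole4) and polymerase delta from −1.89 (Pold1) to 0.03 (Pold4, adjusted p 0.776). CAF-1 ranged from −2.54 (Chaf1b) to −0.58 (Rbbp4, a histone binding protein of several complexes). Ribonucleotide reductase was the widest, since its alternative small subunit gene Rrm2b, a p53 target that serves outside S phase, rose by 0.81 (SE 0.07, adjusted p 7.36e-09) in WT and 0.93 (SE 0.07, adjusted p 7.91e-10) in KO cells. Rrm2b was at 16.1, 17.5 and 17.5 CPM in control and 29.7, 31.0 and 28.9 in senescent WT cells, and at 15.0, 16.1 and 15.9 in control and 28.9, 32.2 and 28.9 in senescent KO cells. Per kilobase of exon, Rrm2 was at 101 RPKM and Rrm2b at 1.86 RPKM in WT control cells, and at 23.5 and 3.27 RPKM in WT senescent cells. Differences between subunits of a complex were not tested.

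**Figure D3:**
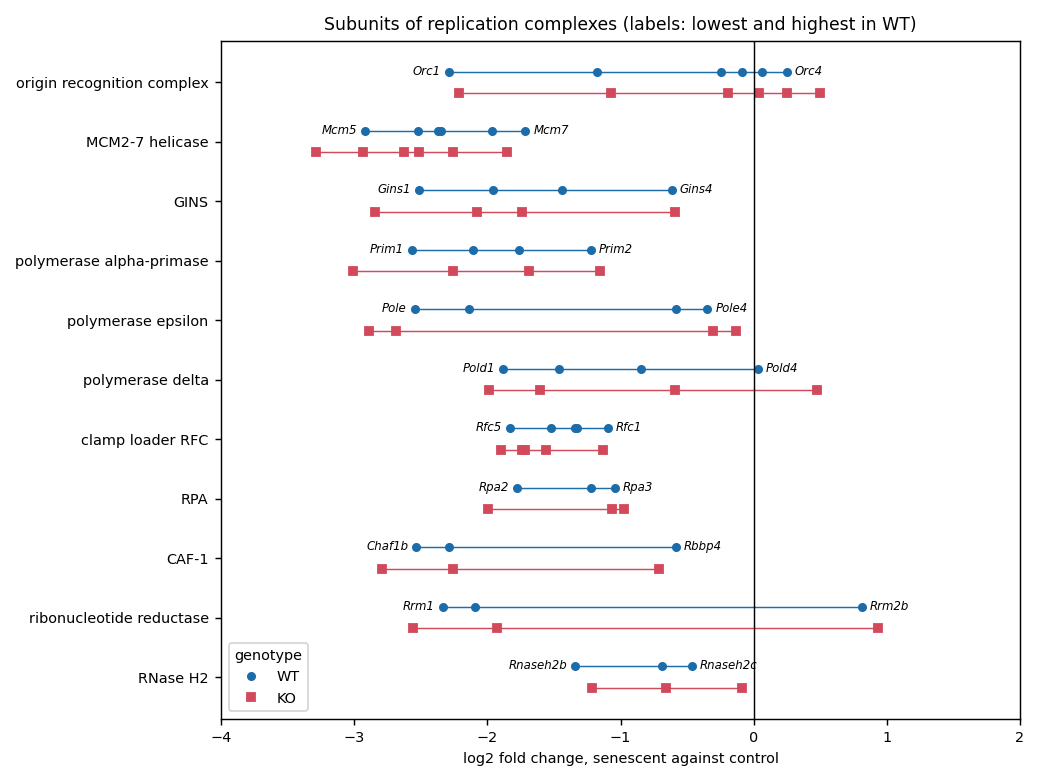
Log2 fold change of senescent against control cells (horizontal) for each subunit of 11 complexes, in WT (circles) and KO cells (squares), joined by a line from lowest to highest, with the lowest and the highest WT subunit named. The ring, RFC and RPA stay at or below −0.97 throughout, and ORC, polymerase delta and ribonucleotide reductase cross 0.

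KO and WT cells were compared within each treatment to ask whether loss of BMAL1 moved these genes. Each genotype was deposited as a separate table, so a difference between tables and one between genotypes cannot be told apart here. In control cells 3 of the 54 were lower in KO past the test (5.56%, against 4.96% of all genes), near the background. Past the test 0 were higher (8.07% of all genes were), with 1 at an unadjusted p under 0.05 and 0 by DESeq2. The median log2 fold change was −0.075 beside 0.0056 over all genes. The 3 were Rrm2 at −0.33 (SE 0.07, adjusted p 0.00535), Cdc6 at −0.27 (SE 0.09, adjusted p 0.0402) and Orc2 at −0.26 (SE 0.07, adjusted p 0.0128). KO control libraries lay below all WT control libraries in 6 of the 54 (10.3% of all genes did), also near the background. The count past the test rested on single control libraries of both genotypes. It was 9 without WT control replicate 2, which was low in most members, and 1 without WT control replicate 3 or without KO control replicate 3. That 1 was Rrm2. Cdc6 did not pass without WT control replicate 1 (adjusted p 0.123) or 3 (0.213) or without KO control replicate 2 (0.104) or 3 (0.159), and Orc2 did not without WT control replicate 3 (0.0712) or KO control replicate 3 (0.0515). The 4 other nucleotide supply genes did not pass in control cells.

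In senescent cells 22 of the 54 were lower in KO than in WT past the test, a share of 40.7% against 11.8% of all genes, and 1 was higher (11.9% of all genes were). The median log2 fold change was −0.27, beside −0.017 over all genes. KO senescent libraries lay below all WT senescent libraries for 31 of the 54 (21.0% of all genes did), above for 3 and overlapped for 20. The share of all genes above was not computed. Licensing genes held 9 of the 22, namely all 6 ring subunits, Cdc6, Gmnn and Mcm8. The 5 with the largest difference were Dna2 at −0.87 (SE 0.16, adjusted p 0.000533), Ticrr at −0.86 (SE 0.18, adjusted p 0.00158), Mcm10 at −0.83 (SE 0.14, adjusted p 0.000113), Cdc6 at −0.61 (SE 0.13, adjusted p 0.00114) and Mcm8 at −0.56 (SE 0.11, adjusted p 0.000993). Orc2 was the 1 that was higher, at 0.23 (SE 0.07, adjusted p 0.0135). Against these, Pcna at −0.01 (SE 0.07, adjusted p 0.954) and Rrm2 at −0.16 (SE 0.08, adjusted p 0.159) did not pass. Each of these differences was under 1 log2 unit. The count was 14 without WT senescent replicate 3 and 15 without KO senescent replicate 3, and 13 of the 23 held under each alternative tried. Orc2 did not pass without WT senescent replicate 2 (adjusted p 0.0657) or 3 (0.0849) or without KO senescent replicate 3 (0.0736).

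**Figure D4:**
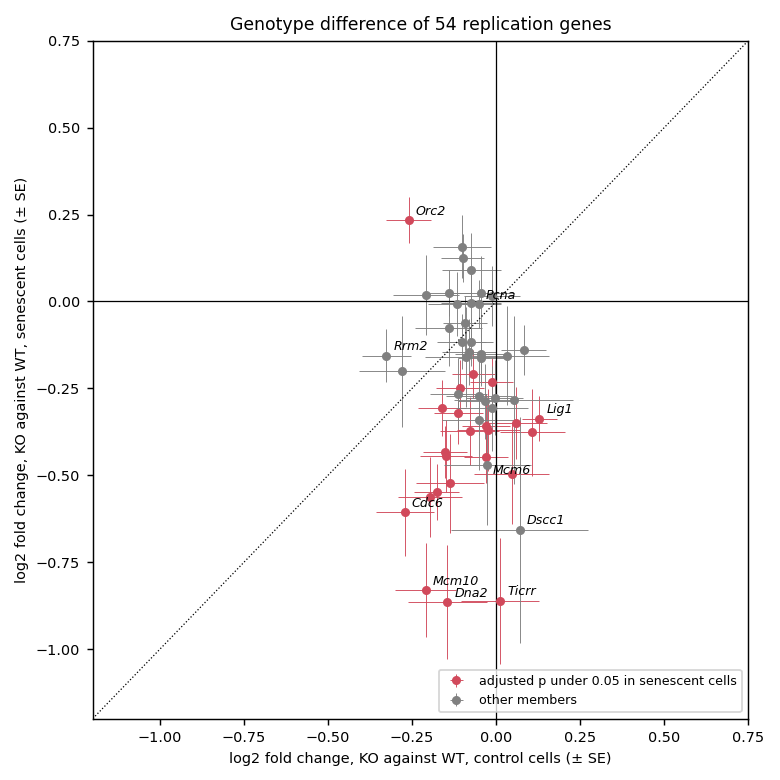
Log2 fold change of KO against WT in control cells (horizontal) and in senescent cells (vertical) for the 54 genes, with bars of 1 SE, a dotted line of equality and the genes past the test in senescent cells in red. All points lie within 0.33 of 0 on the horizontal axis, 46 of the 54 lie below 0 on the vertical axis, and of the 8 above it Orc2 lies highest, at 0.23.

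Whether senescence acted differently in the 2 genotypes was tested with the interaction, which subtracts the senescence log2 fold change of WT cells from that of KO cells. It was negative in 39 of the 54, and 10 passed the test in that direction (18.5%, against 11.7% of all genes) and 1 in the other (1.85%, against 9.24% of all genes). The median was −0.21, beside −0.026 over all genes. The largest of those that passed were Ticrr at −0.87 (SE 0.22, adjusted p 0.00719), Dna2 at −0.72 (SE 0.20, adjusted p 0.0148) and Mcm10 at −0.62 (SE 0.16, adjusted p 0.00963), and the positive one was Orc2 at 0.49 (SE 0.09, adjusted p 0.00094). The others that passed were Pole2 (−0.54), Tk1 (−0.48), Lig1 (−0.47), Mcm6 (−0.42), Rfc3 (−0.41), Mcm5 (−0.37) and Timeless (−0.33, adjusted p 0.0488). Orc2, Mcm6, Mcm10, Ticrr and Lig1 held under every alternative tried. Dna2 did not pass without WT senescent replicate 1 (adjusted p 0.0599) nor Mcm5 without WT senescent replicate 2 (0.0524), and Timeless, Rfc3, Pole2 and Tk1 were lost under several omissions, with adjusted p up to 0.116, 0.101, 0.15 and 0.109. Timeless, Rfc3 and Pole2 also did not pass with the replicate block (adjusted p 0.0864, 0.0535 and 0.0529) or with RLE size factors (0.0727, 0.0537 and 0.0527), and Timeless and Rfc3 did not by DESeq2 (0.0997 and 0.0584). Timeless did not pass without the low count filter either (0.0866). Exons of Ticrr, Lig1, Tk1 and Timeless overlap another annotated gene each, which are Kif7, Zswim9, Afmid and Gm26847 in order. The count ranged from 7, without WT senescent replicate 2, WT senescent replicate 3 or KO senescent replicate 2, to 16 without WT control replicate 3. Of the 8 genes with an E-box in the window, 3 passed in KO against WT senescent cells and 1 in the interaction. Beside these, 23 and 11 of all 54 passed, and 4130 and 3639 of all 17416 genes tested. Only 44 of the 54 had a window, and the difference was not tested.

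The wider pathway was described from 3 further lists. Among 27 other replication genes, such as checkpoint mediators and histone chaperones, 22 were lower (81.5%, against 27.0% of all genes) and 1 higher (3.70%, against 29.2%) with senescence in WT cells, with a median of −0.69. In KO cells 22 were lower (81.5%, against 28.6% of all genes) and 2 higher (7.41%, against 28.5%). The largest WT falls were those of Asf1b, a histone chaperone, at −3.19, and Clspn, the checkpoint mediator claspin, at −3.14, and Orc4 was the 1 that rose. Among 28 other genes of nucleotide metabolism 22 were lower (78.6%, against 27.0% of all genes) and 3 higher (10.7%, against 29.2%) in WT cells. In KO cells 20 were lower (71.4%, against 28.6%) and 5 higher (17.9%, against 28.5%). The medians were −0.61 in WT and −0.46 in KO cells. Dck, deoxycytidine kinase, fell by 2.10 on the log2 scale in WT cells, and Tk2, the mitochondrial thymidine kinase, rose by 1.06 (SE 0.09, adjusted p 1.1e-09). Samhd1, which degrades deoxynucleotides, fell by 0.23 in WT and 0.58 in KO cells. The 2 thymidine kinases moved in opposite directions in both genotypes, with Tk2 at 1.18 (SE 0.08, adjusted p 1.49e-10) in KO cells and the cytosolic Tk1 down. Among 13 other polymerase genes, which act in repair, damage bypass and mitochondria, 4 were lower and 4 higher in WT cells (30.8% each, against 27.0% and 29.2% of all genes), near the background, and 6 were lower and 2 higher in KO cells (46.2% and 15.4%, against 28.6% and 28.5%). Polq and Polh fell by 3.06 and 1.47 in WT cells, and Polk and Poli, bypass polymerases as Polh is, rose by 1.16 and 0.47.

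For comparison, 20 genes of mitosis, the next phase of the cycle, were all lower past the test in both genotypes. Of all genes 27.0% were lower in WT and 28.6% in KO cells. Medians were −2.88 in WT and −3.62 in KO cells, beside −2.08 and −2.21 for the 54 replication genes. In KO against WT senescent cells 17 of the 20 were lower (85%, against 40.7% of the 54 and 11.8% of all genes). The median was −0.63, beside a median of −0.017 in control cells. The interaction was lower past the test in 12 of the 20 (60%, against 18.5% of the 54 and 11.7% of all genes). Replication and mitosis genes thus moved in the same direction with senescence, with larger medians for mitosis, and the difference between the lists was not tested.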

How the data were processed

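The deposited values were raw counts, 1 table per genotype. Per the study's methods, the authors trimmed reads of poly(A) libraries (Trimmomatic 0.36), mapped them to GRCm38 (STAR 2.5.2b) and counted uniquely mapped reads in exons with featureCounts; the annotation release and use of strand are not given in the sources used here. The exons of 20 of the 54 genes overlap another annotated gene. How reads in shared exons were counted is not given either, so those counts may gain or lose reads. The members, their lists and the tests were chosen with earlier results of these data known. Symbols matched 48970 identifiers and GENCODE coordinates (GRCm38) 49056. The 12 libraries were fitted together with 1 mean per group in edgeR 4.0.16 (R 4.3.3, filterByExpr, TMM, robust quasi-likelihood), after a check of the steps on made-up counts, and p-values were adjusted over all 17416 genes tested. SE is the size of the log2 fold change divided by the square root of F. Depth sets a floor of 3 counts per library, which covers counting error only, since reads carried no molecular identifiers. Values in every library were given for the MCM2-7 genes, 10 genes picked by role, each role's extremes and the largest interactions. No libraries were duplicates by a chi-square comparison. Alternatives were RLE factors, library totals, other low-count filters, only the groups compared, a replicate block, DESeq2 1.42.0 and leaving out each library. All CPM and RPKM values were computed here from the deposited counts.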

Additional observations from a re-analysis of the deposited data

Results flagged for a closer look

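The senescence change differed between KO and WT cells, by a test of the difference itself in edgeR's quasi-likelihood fit, for 11 of the 54 genes. Of all 17416 genes tested 3639 passed, so the count of both directions together was near the background. By direction, 10 were negative (18.5%, against 11.7% of all genes) and 1 positive (1.85%, against 9.24%). The KO less WT difference on the log2 scale was −0.87 for Ticrr, −0.72 for Dna2, −0.62 for Mcm10, −0.54 for Pole2, −0.48 for Tk1, −0.47 for Lig1, −0.42 for Mcm6, −0.41 for Rfc3, −0.37 for Mcm5 and −0.33 for Timeless, all larger falls in KO cells. It was 0.49 for Orc2, which fell in WT and rose in KO cells.

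Outside the 54 it was −0.69 for Clspn, −0.35 for Samhd1 and −0.32 for Polk, and 0.43 for Cad and 0.65 for Impdh1, the latter pair chosen after their values were seen. These are named genes and not all that passed. Among the 27 other replication genes 4 passed downward (14.8%, against 11.7% of all genes) and 2 upward (7.41%, against 9.24%). Their median was −0.0038, beside −0.21 for the 54 genes. For Arntl, the targeted gene, the KO less WT difference was 0.82, since reads of Arntl rose with senescence by 1.02 in KO and by 0.20 in WT cells.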

How the results depend on the processing

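With library totals in place of TMM the median of all genes moved up by 0.17 (WT) and 0.15 (KO) on the log2 scale, and the median of the 54 genes became −1.91 in WT and −2.06 in KO cells. The E2F-type share was 15.9% with either word alone. Leaving out each library in turn gave 54 genes past the senescence test each time in both genotypes, with medians of −2.16 to −2.01 in WT and −2.26 to −2.16 in KO cells. The interaction count was 7 to 16 and its median −0.27 to −0.13, KO against WT control 1 to 9 and −0.15 to −0.01, and KO against WT senescent 14 to 22 and −0.29 to −0.22. With the replicate block 54, 54, 9, 3 and 22 genes passed in the 5 comparisons. The numbers were not taken to pair the libraries, because correlations of deviations between libraries of the same number were −0.125 to 0.127. Of calls on single genes, none reversed under an alternative; Orc2 was lost in WT senescence, 6 of 11 were lost at least once in the interaction, 2 of 3 in KO against WT control and 10 of 23 in KO against WT senescent cells. Depth limits Dscc1 most, the gene of the 54 with the fewest counts.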

Other observations

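Of 28 other genes of nucleotide metabolism, 11 passed the interaction upward (39.3%, against 9.24% of all genes), 2 passed it downward (7.14%, against 11.7% of all genes) and 15 did not pass. The median was 0.22, beside −0.21 for the 54 replication genes and −0.026 over all genes, and the difference between the lists was not tested. In control cells 10 of the 28 were lower in KO than in WT (35.7%, against 4.96% of all genes) and 1 was higher (8.07% of all genes were). In senescent cells 4 were lower and 4 higher (14.3% each, against 11.8% and 11.9% of all genes), near the background. The 2 downward genes were Ctps2, a CTP synthase, and Samhd1. Ctps2 was at 32.3, 36.4 and 37.3 CPM in control and 44.9, 48.7 and 42.8 in senescent WT cells, and at 39.0, 41.5 and 45.2 in control and 38.4, 38.5 and 34.8 in senescent KO cells. Its interaction was −0.53 (SE 0.11, adjusted p 0.00121), with a senescence log2 fold change of 0.36 (SE 0.07, adjusted p 0.000281) in WT and −0.17 (SE 0.07, adjusted p 0.0577) in KO cells. The interaction of Samhd1 was −0.35 (SE 0.08, adjusted p 0.0045). The following 4 of the 11 upward genes, and Ctps2, were chosen after their values were seen. Impdh1, an enzyme of guanine nucleotide synthesis, was at 92.6, 89.1 and 92.3 CPM in control and 38.4, 36.8 and 37.7 in senescent WT cells, and at 88.9, 71.1 and 84.1 in control and 54.3, 46.6 and 56.7 in senescent KO cells. Its interaction was 0.65 (SE 0.11, adjusted p 0.000354), and KO senescent libraries lay above WT senescent ones. Cad, which starts pyrimidine synthesis, was at 278, 249 and 301 CPM in control and 147, 136 and 147 in senescent WT cells, and at 247, 219.9 and 218 in control and 167, 156 and 156 in senescent KO cells, with an interaction of 0.43 (SE 0.09, adjusted p 0.00268). Ppat, which starts purine synthesis, was at 41.9, 39.4 and 48.0 CPM in control and 20.6, 21.9 and 20.5 in senescent WT cells, and at 36.5, 32.0 and 33.5 in control and 23.6, 21.9 and 25.8 in senescent KO cells, with an interaction of 0.52 (SE 0.12, adjusted p 0.00306). Shmt1, a folate enzyme of the thymidylate cycle, was at 25.2, 20.5 and 26.1 CPM in control and 7.01, 9.70 and 8.53 in senescent WT cells, and at 19.2, 16.3 and 16.9 in control and 10.1, 9.22 and 9.29 in senescent KO cells, with an interaction of 0.63 (SE 0.17, adjusted p 0.00949). All 4 fell with senescence in both genotypes, and by less in KO cells.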
